A study of Rattus norvegicus with 8 samples.

Results

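The proteasome genes on a rat whole-genome expression array were compared between livers of weanling pups of methyl donor deficient dams and of dams on standard food. A probe was taken as a member where it was no control spot and its gene name began with Psma, Psmb, Psmc, Psmd, Psme, Psmf or Psmg. This gave 53 probes for 48 genes, of 30367 probes for 26488 genes or unnamed transcripts on the array. Of the 48 genes, 47 were tested among 14873 in all, and each of the 47 was well above background in all 8 samples. The remaining gene, Psmb11, encodes the catalytic subunit of the thymus proteasome, and its probes were not well above background in any liver. One tested member, Psmc3ip, encodes a meiotic recombination factor that binds a proteasome ATPase and is no part of the proteasome, so it shares only the prefix.

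The proteasome degrades proteins that carry chains of ubiquitin. Its barrel-shaped core is built from outer rings of alpha subunits (Psma) and inner rings of beta subunits (Psmb), some of which cut proteins, and a regulatory cap of ATPases (Psmc) and other subunits (Psmd) recognises, unfolds and feeds in the substrates. Cells exposed to interferon replace the cutting subunits Psmb5, Psmb6 and Psmb7 by Psmb8, Psmb9 and Psmb10, which makes the immunoproteasome, a form that favours peptides for display on class I molecules. The Psme proteins are alternative caps that activate the core, Psmf1 is an inhibitor of it in the test tube, and the Psmg proteins together with Psmd5, Psmd9 and Psmd10 are chaperones that help to assemble the particle and then leave it.

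The animals were Wistar rats aged 21 days, the tissue was whole liver, and the arrays were read in 2 colours. The MDD group (methyl donor deficiency, n = 4, 2 of them male) had dams on a diet lacking vitamin B12 and folates, and the control group (n = 4, 1 male) had dams on standard food. In both groups the dam's diet began before pregnancy and ended when the pups were weaned. Each of the 4 arrays held 1 MDD and 1 control animal in different dyes. MDD 3 shared array 1 with control 1, MDD 1 shared array 2 with control 3, MDD 4 shared array 3 with control 2, and MDD 2 shared array 4 with control 4. The labels used here name no dam or litter, so the p-values measure only the spread between these animals. The comparison asks how the diet of the dam is reflected in liver gene expression of the offspring.

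Median spot signals were between 153 and 299 over median backgrounds of 33 to 58, and no spot was saturated. Only 4 arrays were measured, which also limits the precision. Hepatocyte markers were all measured, and 2 of 10 were higher and 3 lower in MDD livers. Over all genes tested 4.57% were higher and 6.6% lower. Apoa2 (1.86) and Ass1 (0.77) were the higher ones, and Tf (-1.01), Ttr (-0.89) and Serpina1 (-0.59) the lower ones, as log2 changes. Their summed linear intensities were 691258 to 1002600 in MDD livers and 1008310 to 1324190 in control livers, which did not overlap. These sums cover all 10 markers and weigh the brightest genes most. The median of skeletal muscle genes stood apart on array 1. The median log2 ratio of MDD over control for the 5 tested of 16 listed was 2.22 on array 1. It was 0.31, 0.24 and 0.03 on arrays 2 to 4. Only Tnnc2 of the 5 was called, and it was higher on every array, with ratios of 3.12, 2.93, 2.57 and 2.78 (limma adjusted p = 0.000464). In a bulk sample, fewer cells of a type cannot be told apart from less RNA per cell.

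Among the 47 proteasome genes, 1 was higher in MDD livers and 2 were lower, and all 3 encode assembly chaperones: Psmg4 was higher, while Psmg1 and Psmd5 were lower. With Psmd5 counted as a chaperone, no structural subunit of the core or the cap passed limma's test at an adjusted p of 0.05. Psmd5 is named as a cap subunit and was set with the chaperones after results were known. No immunoproteasome subunit and no activator passed that test. The 3 calls are 6.38% of the members, and the background over the 14873 genes was 11.2%, with 4.57% higher and 6.6% lower. At an unadjusted p below 0.05 there were 8 members, 17% of the 47, against a background of 27.6%. Changes are given throughout as log2 differences of normalized intensity, MDD minus control, with the SE of the limma fit over 4 animals in each group.

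The estimates of 38 of the 47 members, 80.9%, were below 0, against 48.2% of all genes. Their median was -0.12, and that of all genes tested was 0.01. This lean was small for each gene and uneven over the arrays. The median ratios of the members on arrays 1 to 4 were -0.06, -0.24, -0.02 and -0.13. On the same arrays 31, 36, 26 and 34 of the 47 lay below 0. The MDD liver was in Cy5 on arrays 2 and 4 and in Cy3 on arrays 1 and 3. These ratios carry no dye term, so dye and animal cannot be told apart in their unevenness. The ratio was below 0 on all 4 arrays for 11 members, 23.4% of them, where the background was 13.8%, and above 0 on all 4 for 1, where it was 13.5%. All 4 MDD livers lay below all 4 control livers for 4 members (Psmd5, Psmg1, Psmb10 and Psmc1), against a background of 5.96%, and above them for Psmg4 alone, against 5.51%. The members were measured in the same 8 livers and are not independent of each other.

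**Figure D1:**
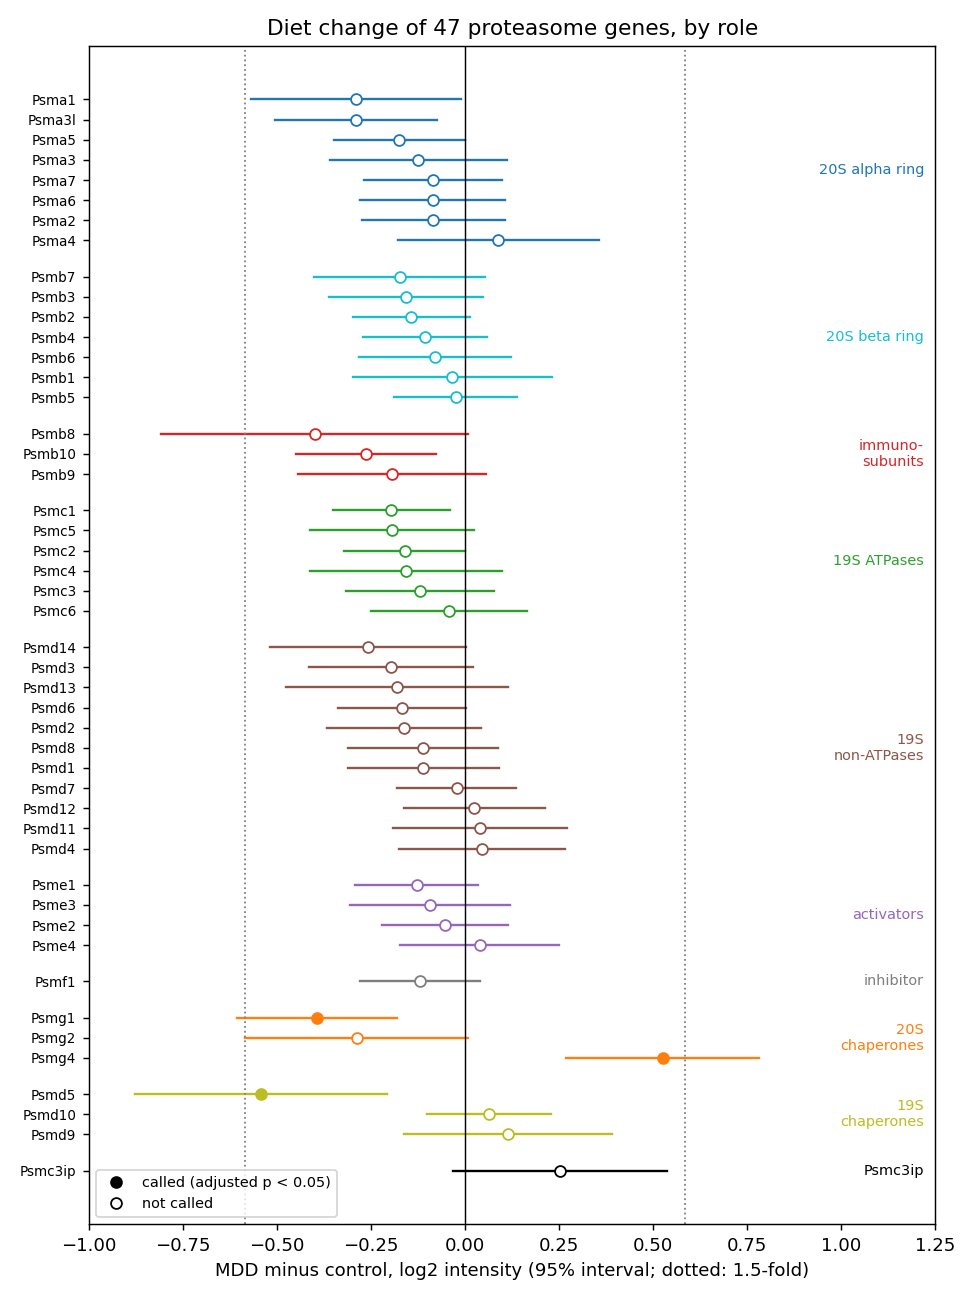
Log2 change in intensity (MDD minus control, horizontal axis) of each of the 47 tested proteasome genes, with its 95% confidence interval, grouped and coloured by role (20S is the core, 19S the cap); filled points passed limma's test at an adjusted p of 0.05, open points did not, and dotted lines mark a 1.5-fold change. Most estimates lie just below 0, and the chaperones Psmg4 (0.53) and Psmd5 (-0.54) lie farthest from it.

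The genes of the core's outer ring differed little between the diets. Of the 8 alpha-ring genes 7 had estimates below 0 and none was called, with a median of -0.11 and a range from -0.29 for Psma1 and Psma3l to 0.09 for Psma4. Psma3l is named as a like gene of Psma3, and its probe lies 999 bases from that of Psma3 in the rn4 build. Whether each probe reads only its own gene was not tested. Psma3l measured 13.26, 13.48, 12.92 and 13.14 in MDD 1 to 4 and 13.32, 13.48, 13.54 and 13.61 in control 1 to 4 (log2 normalized intensity). MDD 3 was the lowest and MDD 2 lay among the controls, and the difference of -0.29 ± 0.09 was not called (limma adjusted p = 0.0855).

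All 7 constitutive beta-ring genes had estimates below 0 and none was called, the median being -0.11 and the range -0.17 to -0.03. Psmb7, which carries the trypsin-like activity, was at the lower end of that range, and Psmb5, which carries the chymotrypsin-like activity, at the upper end. Psmb7 measured 10.97, 11.33, 11.27 and 11.65 in MDD livers and 11.21, 11.58, 11.46 and 11.66 in control livers. Psmb6, which carries the caspase-like activity, measured 11.37, 11.78, 11.59 and 11.79 in MDD livers and 11.62, 11.77, 11.67 and 11.78 in control livers. Psmb5 measured 13.73, 13.80, 13.89 and 14.06 in MDD livers and 13.84, 13.91, 13.88 and 13.96 in control livers. For all 3 of these cutting subunits the groups overlapped and MDD 1 was the lowest of the 8 livers.

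The cap had the same lean. The 6 ATPases of its base, which unfold the substrate, all had estimates below 0, with a median of -0.16 and a range from -0.20 for Psmc1 to -0.04 for Psmc6. Psmc1 measured 11.99, 12.05, 11.89 and 12.03 in MDD livers and 12.14, 12.24, 12.14 and 12.23 in control livers. The groups did not overlap, and the change of -0.20 ± 0.07 was not called (limma adjusted p = 0.102). Of the 11 other cap subunits, which leave out Psmd5, Psmd9 and Psmd10, 8 had estimates below 0 and none reached an unadjusted p of 0.05. They ranged from -0.26 for Psmd14, the enzyme that removes the ubiquitin chain, to 0.04 for Psmd4, a receptor for that chain.

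The 32 constitutive subunits of core and cap varied little in their changes, none was called and 4 had an unadjusted p below 0.05. The SD of their changes was 0.0928 on the log2 scale, against 0.373 for the 8112 genes within the level range of the 47 members. The sets were not matched in level, the median being 12.28 for the 32 and 10.40 for the 8112. The 95% confidence interval of every one of the 32 lay within a 1.5-fold change in either direction. This was so for 72.7% of the genes in that range of levels and for 78.2% of all genes. The 32 leave out the called gene Psmd5, which is named as a cap subunit and whose interval was -0.88 to -0.21. It was set with the chaperones after results were known, so these statements hold only under that grouping. The median deviation of the 32 subunits from each gene's mean was -0.09, -0.01, -0.12 and 0.02 in MDD 1 to 4 and -0.07, 0.07, 0.10 and 0.14 in control 1 to 4. Control 1 lay with the lower MDD livers, and MDD 2 and MDD 4 lay close to 0. Control 1, MDD 2 and MDD 4 were the males. In females only the median change of all tested proteasome genes was -0.19, against -0.12 in both sexes. Whether the pattern follows sex or the single animals was not tested.

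**Figure D2:**
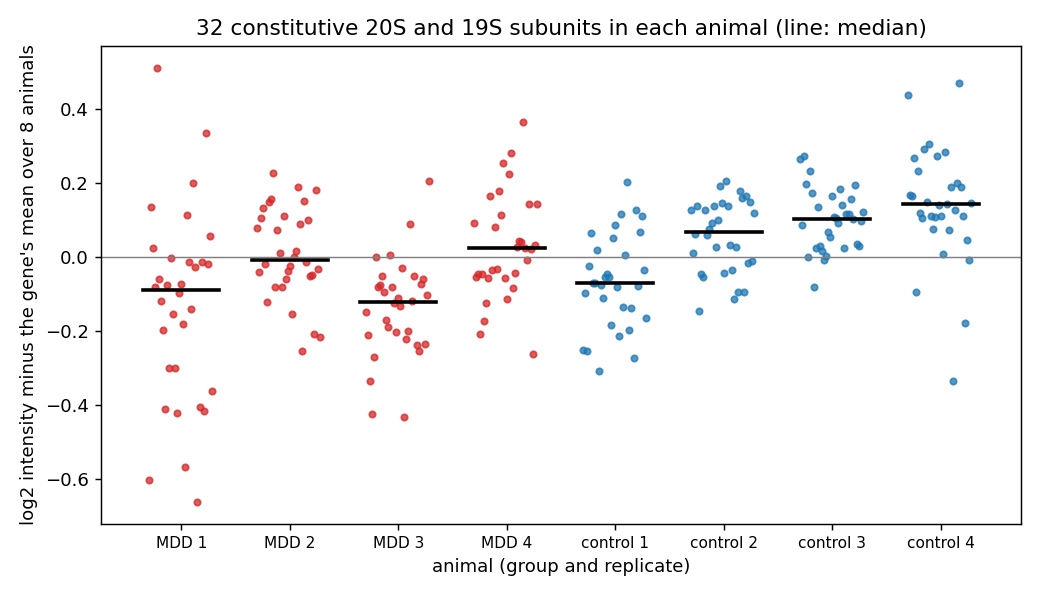
Log2 intensity of the 32 constitutive core (20S) and cap (19S) subunits in each liver, as the difference from each gene's mean over the 8 livers; each point is a gene and the black line is the median. The medians are -0.09, -0.01, -0.12 and 0.02 in MDD 1 to 4 and -0.07, 0.07, 0.10 and 0.14 in control 1 to 4, and the points of MDD 1 are the most widely spread.

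The lowest and highest values were spread unevenly over the animals. Of the 47 members 42 had their lowest value in an MDD liver, 20 in MDD 1, 15 in MDD 3, 6 in MDD 4 and 1 in MDD 2. The highest value was in control 4 for 16 members. Over all genes, MDD 1 was the lowest liver for 26.7% and the highest for 28.6%. MDD 3, MDD 4 and MDD 2 were the lowest for 9.74%, 9.55% and 12.6%, and control 4 was the highest for 13.2%. Without MDD 2, 8 members were called lower, Psma1, Psma3l, Psmd3, Psmd6, Psmd14 and Psmg2 being added to Psmg1 and Psmd5. The same fit called 3548 genes, 23.9% of all tested, so the members' share of 19.1% called in either direction lay below that background. The count of lower members was 1 without MDD 1 (1513 genes called in all) or control 4 (1053) and 2 without MDD 3 (1664). It was 0 without MDD 4 (509), control 1 (685), control 2 (590) or control 3 (383). The median change stayed between -0.16 and -0.09 in these 8 repeats, so no single liver accounted for it.

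The immunoproteasome subunits were lower on average in MDD livers and none of the 3 was called. Their estimates were -0.40 ± 0.18 for Psmb8, -0.26 ± 0.08 for Psmb10 and -0.20 ± 0.11 for Psmb9, with limma adjusted p-values of 0.190, 0.0734 and 0.289. Psmb8 measured 8.35, 8.66, 9.25 and 8.38 in MDD livers and 9.20, 9.33, 8.94 and 8.76 in control livers. MDD 3 reached the level of the controls and the other MDD livers lay below every control. Without MDD 3 the change of Psmb8 was -0.65 and was called (limma adjusted p = 0.0126), and without array 1, which holds MDD 3, it was -0.65 (limma adjusted p = 0.0315). With spots in very high local background kept, the change of Psmb8 was -0.18 (limma adjusted p = 0.465). Over all alternatives the change was between -0.65 and -0.15 and its adjusted p between 0.0126 and 0.802, with 3 calls among 25.

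Psmb9, whose probe lies 18.3 kb from that of Psmb8 on chromosome 20 in the rn4 build, had the same order of the MDD livers. It measured 10.20, 10.38, 10.78 and 10.32 in MDD livers and 10.86, 10.62, 10.55 and 10.44 in control livers, and MDD 3 was again the highest MDD liver. Psmb10 lies on chromosome 19 and measured 13.06, 13.08, 13.16 and 12.80 in MDD livers and 13.45, 13.23, 13.17 and 13.30 in control livers. For Psmb10 the groups did not overlap, by a narrow margin between MDD 3 and control 3. Its adjusted p was between 0.0144 and 0.688 over all alternatives, with 1 call among 25.

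**Figure D3:**
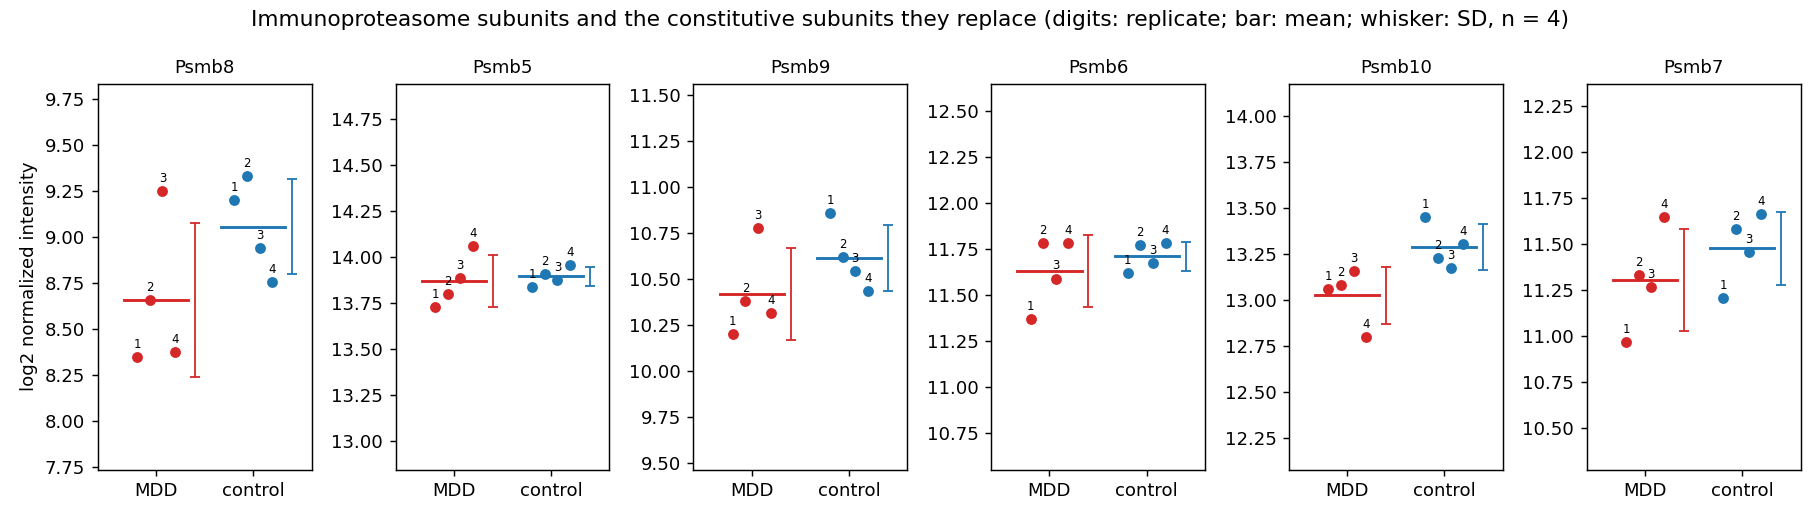
Log2 normalized intensity of each immunoproteasome subunit beside the constitutive subunit it replaces, with points for the 4 MDD and 4 control livers numbered by replicate, horizontal bars for the means and whiskers for the SD (n = 4 each); every panel spans the same number of log2 units. Psmb10 shows no overlap between the groups, Psmb8 and Psmb9 overlap through MDD 3, and the constitutive subunits overlap throughout.

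Each immunoproteasome subunit was then set against its constitutive counterpart, as the difference of their changes within each array. Psmb8 changed by -0.37 relative to Psmb5, and the difference was 0.00, -0.45, -1.11 and 0.06 on arrays 1 to 4. Psmb9 changed by -0.12 relative to Psmb6, with -0.05, -0.04, -0.32 and -0.06 on the arrays. Psmb10 changed by -0.09 relative to Psmb7, with -0.36, 0.38, -0.49 and 0.11. Only the difference between Psmb9 and Psmb6 had the same sign on all 4 arrays. In females only it was 0.22, and that between Psmb10 and Psmb7 was 0.33, so both turned in sign. That between Psmb8 and Psmb5 was between -0.57 and -0.10 over all alternatives. An exact two-sided permutation of the diets within arrays gave p = 0.5, 0.125 and 0.75 for the 3 pairs in that order (0.75, 0.375 and 0.75 after Benjamini-Hochberg adjustment over them). With 4 arrays this test cannot go below 0.125. An exact permutation over all splits of the 8 livers, which can reach 0.0286, gave unadjusted p = 0.229, 0.486 and 0.771. The test within arrays could not have passed 0.05 whatever the values, and Psmb9 against Psmb6 reached its smallest possible p, so it decides nothing. By the test over all splits, which sets aside the pairing by array, no pair differed beyond the spread between animals. Leaving out single livers moved these values between -0.57 and -0.22 for Psmb8, between -0.25 (without MDD 3) and -0.00417 (without control 1) for Psmb9, and between -0.21 (without MDD 1) and 0.10 (without MDD 4) for Psmb10.

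The promoters of the 3 immunoproteasome genes are shown because interferon acts on such genes through sequence elements near the start. They are the 250 bases before the annotated start, from RefSeq in the GRCr8 build, at chr20:4657032-4657281 (minus strand) for Psmb8, chr20:4668750-4668999 (plus strand) for Psmb9 and chr19:50743293-50743542 (minus strand) for Psmb10. Capitals mark matches, on either strand, to the core of the interferon-stimulated response element (GAAA, any 2 bases, GAAA), TTCNNNGAA (a STAT site), CCAAT (an NF-Y box) or TGACNNNGC (the core of the antioxidant response element).
Psmb8: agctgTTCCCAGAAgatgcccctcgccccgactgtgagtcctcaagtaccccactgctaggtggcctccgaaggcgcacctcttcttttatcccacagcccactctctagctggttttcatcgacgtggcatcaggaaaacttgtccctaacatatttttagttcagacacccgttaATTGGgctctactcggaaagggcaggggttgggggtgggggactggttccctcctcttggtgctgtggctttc
Psmb9: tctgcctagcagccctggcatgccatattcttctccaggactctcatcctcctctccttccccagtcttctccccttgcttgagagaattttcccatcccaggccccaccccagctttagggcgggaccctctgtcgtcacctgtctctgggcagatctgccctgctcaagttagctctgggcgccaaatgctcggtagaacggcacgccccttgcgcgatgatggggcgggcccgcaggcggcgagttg
Psmb10: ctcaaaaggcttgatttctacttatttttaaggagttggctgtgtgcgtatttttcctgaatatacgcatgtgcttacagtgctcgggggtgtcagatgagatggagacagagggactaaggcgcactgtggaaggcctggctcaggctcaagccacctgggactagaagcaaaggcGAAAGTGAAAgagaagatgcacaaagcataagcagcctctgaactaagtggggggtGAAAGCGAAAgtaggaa
Psmb10 held the interferon-stimulated element core at 2 places, Psmb8 held a STAT site and a CCAAT box, and Psmb9 held none of the 4 motifs in this window.

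Over all members with a promoter in the RefSeq table, 42 of 48, the interferon-stimulated element core was found in 5 (11.9%, against 3.29% of 27457 promoters): Psma4, Psmb3, Psmb10, Psmd7 and Psme2. CCAAT was found in 20 (47.6% against 34.3%), TGACNNNGC in 7 (16.7% against 10.2%) and TTCNNNGAA in 4 (9.52% against 7.52%). These matches describe the letters in the window and do not show that a factor binds there. The promoters of the called genes Psmg4, Psmg1 and Psmd5 held none of the 4 motifs.

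The activators and the inhibitor were close to 0. Psme1 and Psme2 form the interferon-inducible cap, and their probes lie 7.32 kb apart on chromosome 15 in the rn4 build. Psme1 measured 14.20, 14.38, 14.53 and 14.44 in MDD livers and 14.51, 14.50, 14.52 and 14.54 in control livers (-0.13 ± 0.07, limma adjusted p = 0.287). MDD 3 lay with the controls, and the other MDD livers lay below them. Psme2 measured 13.98, 14.12, 14.16 and 13.99 in MDD livers and 14.14, 13.96, 14.12 and 14.25 in control livers, which overlapped (-0.05 ± 0.07).

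Psme3 encodes the nuclear activator and measured 8.31, 8.76, 8.65 and 8.83 in MDD livers and 8.73, 8.76, 8.67 and 8.78 in control livers (-0.09 ± 0.09). Psme4, a nuclear activator known from sperm formation, measured 11.00, 10.75, 10.39 and 10.39 in MDD livers and 10.73, 10.50, 10.64 and 10.51 in control livers (0.04 ± 0.09), and its second probe was at -0.07. The groups overlapped for both genes. The inhibitor Psmf1 measured 11.89, 11.82, 11.61 and 11.67 in MDD livers and 11.82, 11.92, 11.84 and 11.89 in control livers (-0.12 ± 0.07). A second, dimmer probe of Psmf1 on chromosome 3 gave -0.45 ± 0.17 and was not called (limma adjusted p over probes = 0.127), so the 2 probes differed in size and not in sign.

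All 3 called genes were assembly chaperones, of 6 tested, and they did not move together. The background of calls over all genes was 11.2%, and no test compared these shares. Pomp, which matures the core, is listed with the partners and was not called (limma adjusted p = 0.333). Psmd5, Psmd9 and Psmd10 are named as cap subunits and were set with the chaperones by their known role, after results were known. Psmg4 encodes a chaperone that acts early in the building of the alpha ring. It measured 12.32, 11.73, 11.52 and 11.58 in MDD livers and 11.34, 11.25, 11.43 and 11.04 in control livers. Every MDD liver lay above every control, with MDD 1 the highest, and the ratio was 0.18, 0.90, 0.34 and 0.69 on arrays 1 to 4. Psmg4 rose by 0.53 ± 0.11, or 1.44-fold (limma adjusted p = 0.0226).

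Psmg4 has 2 probes, both on chromosome 17 in the rn4 build, at 37050892 to 37050951 and 37050938 to 37050997 on the minus strand. The second gave 0.54 ± 0.10 (limma adjusted p over probes = 0.0154). The probes share 14 bases, shown in capitals as the end of one and the start of the other, so they read neighbouring stretches of 1 transcript and are no independent check of each other's animals.
Psmg4, last 30 bases of the upstream probe: gaaatggagacctttcCGGAAAAGTTCTGA
Psmg4, first 30 bases of the downstream probe: CGGAAAAGTTCTGAgcagcagaaggaagtg

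Psmg1 encodes a partner in the chaperone pair that starts the alpha ring. It measured 13.08, 13.51, 13.35 and 13.32 in MDD livers and 13.66, 13.59, 13.83 and 13.75 in control livers. The groups did not overlap and MDD 1 was the lowest. Psmg1 fell by 0.39 ± 0.09, to 0.761 of the control level (limma adjusted p = 0.0330). Its partner Psmg2 measured 7.83, 8.60, 8.39 and 8.51 in MDD livers and 8.32, 8.72, 8.59 and 8.85 in control livers, which overlapped, and its change of -0.29 ± 0.13 was not called (limma adjusted p = 0.193).

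Psmd5 encodes a chaperone of the cap's base. It measured 8.41, 9.10, 9.33 and 9.12 in MDD livers and 9.37, 9.62, 9.66 and 9.47 in control livers. The groups did not overlap, by a margin of MDD 3 below control 1, and the ratio ran from -1.25 on array 2 to -0.05 on array 1. Psmd5 fell by 0.54 ± 0.15, to 0.687 of the control level (limma adjusted p = 0.0492). The other chaperones of the base, Psmd9 and Psmd10, had changes of 0.11 ± 0.12 and 0.06 ± 0.07, and a second probe of Psmd9 was at -0.04.

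**Figure D4:**
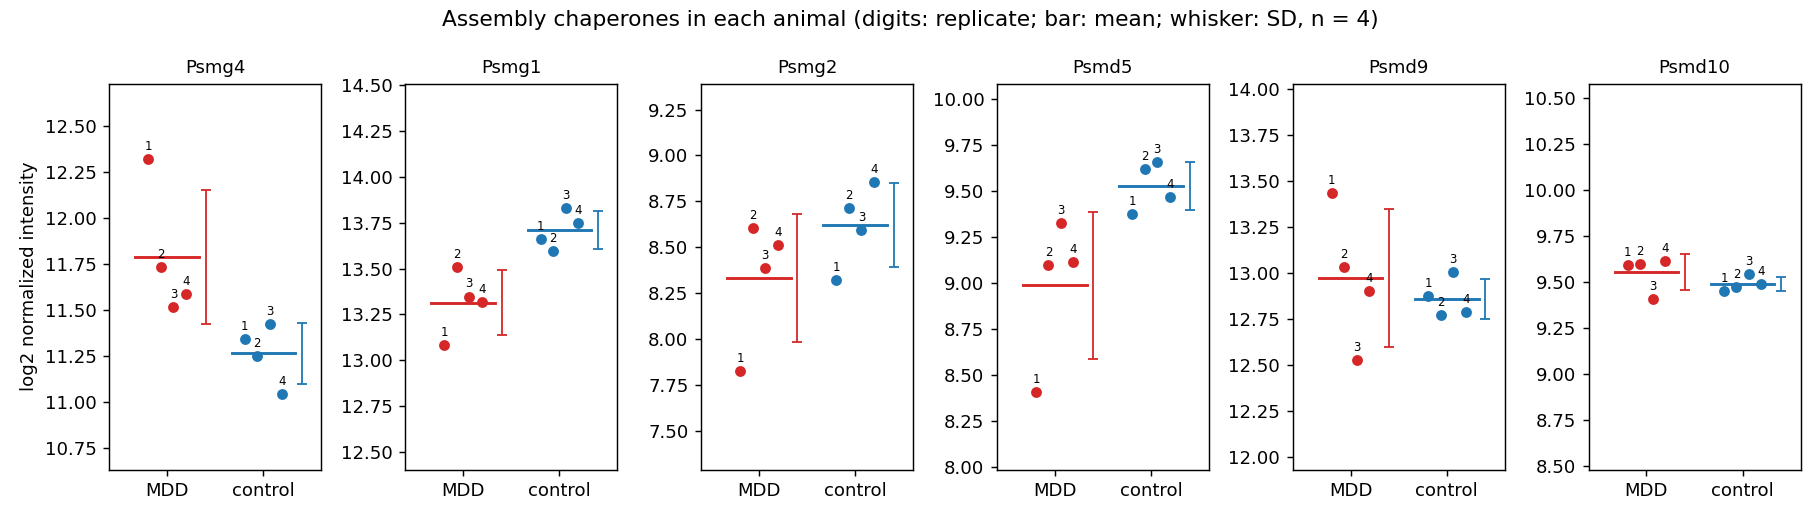
Log2 normalized intensity of the 6 assembly chaperones, with points for the 4 MDD and 4 control livers numbered by replicate, bars for the means and whiskers for the SD (n = 4 each). Psmg4 lies higher in every MDD liver than in any control, Psmg1 and Psmd5 lie lower in every MDD liver, and Psmg2, Psmd9 and Psmd10 overlap.

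These 3 calls lay near the threshold of 0.05 and were lost when some single livers were left out, although the directions stayed. Leaving out MDD 4 or control 1, 2 or 3 also cut the calls over all genes, from 1660 to between 383 and 685. Whether the lost calls come from the liver left out or from the smaller number of animals was not tested. On simulated data the fit made more false calls than that threshold aims at. Psmg4 lost its call without MDD 4 or any 1 of the controls, with limma adjusted p-values of 0.0596 to 0.094 and changes of 0.42 to 0.59 over the 8 repeats. Psmg1 lost its call without MDD 3, MDD 4 or any 1 of the controls (0.0504 to 0.172, changes of -0.51 to -0.30). Psmd5 lost its call without MDD 1, MDD 4 or control 1, 2 or 3 (0.063 to 0.213), and without MDD 1 its change was -0.34. Without array 1, which held MDD 3 with its high muscle genes, the changes were 0.57 for Psmg4, -0.38 for Psmg1 and -0.66 for Psmd5. None was called there (limma adjusted p = 0.0692, 0.128 and 0.0839). Over all 25 alternatives the adjusted p was between 0.00407 and 0.205 for Psmg4, between 0.00441 and 0.216 for Psmg1, and between 0.00818 and 0.359 for Psmd5.

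Psmc3ip, which is not proteasomal, measured 8.44, 9.01, 8.38 and 8.81 in MDD livers and 8.40, 8.29, 8.26 and 8.67 in control livers (0.25 ± 0.13, limma adjusted p = 0.231). The groups overlapped. It had the second highest estimate of the 47 members after Psmg4.

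The genes that work with the proteasome gave no call by limma in 3 lists. Of 9 tested partners and assembly factors, 2 had an unadjusted p below 0.05 and the median change was -0.13. Pomp, which matures the core, was at -0.13 ± 0.08. Of 16 genes for ubiquitin, its activating enzymes and shuttle factors, 3 had an unadjusted p below 0.05 and the median was -0.11, Ubb being at -0.29 ± 0.10 and Vcp, the segregase that pulls proteins out of complexes, at -0.27 ± 0.10. Of 9 tested regulators of proteasome genes, 2 had an unadjusted p below 0.05, with a median of -0.12. Among these, Nfe2l1, the factor that raises proteasome genes when proteasomes are short, was at 0.20 ± 0.10, and Nfe2l2, the factor of the antioxidant response, at -0.42 ± 0.19. These genes were named for their roles. All 3 counts of 0 compare with the background of 11.2%.

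Of 12 tested genes of class I antigen presentation, which use the peptides that immunoproteasomes make, 2 were called lower in MDD livers, where the background was 6.6%, and 4 had an unadjusted p below 0.05, where it was 27.6%. The median was -0.23. Pdia3, a chaperone of the peptide-loading complex and of glycoproteins in general, fell by 0.59 ± 0.12 (limma adjusted p = 0.0197), and Tapbpl, a peptide editor, was called at -0.69 ± 0.18 (limma adjusted p = 0.0424). The signal of Tapbpl was well above background in only 5 of the 8 livers and its ratio on array 4 was 0.40, so the size of that difference is uncertain. The uncalled genes with an unadjusted p below 0.05 were the class I gene RT1-A1 at -0.52 ± 0.16 and Calr at -0.47 ± 0.15. Of the peptide pump, Tap1 was at -0.11 ± 0.09 and Tap2 at -0.41 ± 0.19. B2m, the light chain of class I molecules, was at 0.09 ± 0.10. Of 17 tested genes of the interferon response, none was called by limma, 2 had an unadjusted p below 0.05 and the median was 0.07. These 2 went opposite ways, Cxcl10 being at 0.39 ± 0.13 and Jak1 at -0.19 ± 0.08. Isg15 was at 0.38 ± 0.20 and Irf1 at -0.18 ± 0.14.

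Immunoproteasome genes are also high in leukocytes, so the leukocyte list is given beside them. Of its 15 genes 8 were tested and 2, Cd3g and Lcp1, were called lower in MDD livers, where the background was 6.6%. Cd3g was well above background in 6 of the 8 livers. Among its defining genes, Cd3e, Cd8a, Cd2, Cd79a, Cd79b and Ms4a1 were not well above background. The summed intensity of the tested genes was 9246 to 11157 in MDD livers and 9259 to 12410 in control livers, and the ranges overlapped. Of the neutrophil list, 5 of 6 tested genes were called lower, against the same background, with sums of 1380 to 2041 in MDD livers and 2251 to 4060 in control livers, and of 11 macrophage genes none was called by limma or reached an unadjusted p of 0.05. Their part in the immunoproteasome values was not tested.

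The sexes were spread unevenly, with 2 of 4 MDD and 1 of 4 control livers from males. In a fit with a diet by sex term, no proteasome gene had a different response in males and females after adjustment, the smallest limma adjusted p being 0.535, and 4 members had an unadjusted p below 0.05. With 1 male control this term rested on that animal. No gene of the whole array was called for the same term, with 1345 at an unadjusted p below 0.05.

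The probes of 7 members were printed 10 times on each array, which gives the error of the spots themselves. The SD between spots of 1 probe was 0.115 to 0.218 on the log2 scale for Psma5, Psmb2, Psmd6, Psmd12, Psme2, Psme3 and a probe of Psme4. By position the 48 genes lie on 18 chromosomes, so most of the family is unlinked, and 9 of the 53 probes span an exon junction in the rn4 build.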

How the data were processed

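Liver RNA of 8 rats was hybridised to 4 Agilent 2-colour arrays, and the authors deposited the intensities of the spots; the submitters' processing notes name Agilent Feature Extraction 10.7.1.1. Samples on the same array were found by identical deposited array data, and dyes are those of the labels. The authors' deposited table of normalized intensities (method not given in the sources used here) was an alternative.

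Using limma 3.58.1 (R 4.3.3), the mean signal of each spot was background-corrected by normexp (offset 50) after 72 spot values with a local background over 5 times the channel's median were left out, then normalized by loess within and Aquantile between arrays. Outlier-flagged spots were dropped, spots of a probe averaged, probes kept if well above background in at least 4 of 8 samples, and the brightest probe per gene used. Diet and dye were fitted with the array as a random block (correlation 0.421). Calls were made at a Benjamini-Hochberg adjusted p of 0.05 over 14873 genes. On simulated data this correlation came out too high and clearly more false calls were made than the threshold aims at. The members, gene lists and markers were chosen with earlier results of these data known. Full values are given for called members, Psmb5 to Psmb10, the Psme genes and Psmf1. Others were named for their place in a range, a lack of overlap or their role, after their values were seen. Some genes of the lists are not reported here by name.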

Additional observations from a re-analysis of the deposited data

Results flagged for a closer look

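Each gene's 4 values in a group were examined for a single liver far from the others by Dixon's test, in 94 groups of 4 livers, and 4 stood out, where chance would give about 4.7. Psmc3, an ATPase of the cap's base, was at 12.17 in MDD 4, against 11.81 in the nearest other MDD liver (log2 normalized intensity). Psma6, of the core's outer ring, was at 14.37 in MDD 2, against 14.14 in the nearest. Psmd10, a chaperone of the base, was at 9.41 in MDD 3, below 9.59 in the nearest. Psmd8, a subunit of the cap's lid, was at 11.55 in control 1, below 11.84 in the nearest other control. None of these genes was called.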

How the results depend on the processing

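The median change of the proteasome genes stayed between -0.19 and -0.08 in all 25 alternatives, and Psmg4, Psmg1 and Psmd5 kept their directions in all of them. Their calls held in 14, 11 and 9 of the 25. The count of higher and lower proteasome genes was 0 and 1 with spots in high local background kept (954 genes called in all), 0 and 0 without an array block (400), 0 and 0 with sex as a further term (824), and 0 and 0 in females only (59). The lower count was 0 with the scanner's processed signals and 1 without background subtraction or without the filter on dim probes. With the array as a fixed replicate block, which pairs the 2 animals of an array, the lower count was 0 and 467 genes were called in all. The replicate numbers themselves follow sample order and pair nothing. Leaving out an array gave 0 higher and 1 lower without array 1, 0 lower without array 2 (911 in all), 0 and 0 without array 3 (210) and 6 lower without array 4 (2880). Leaving out 1 animal gave 0 to 1 higher, 0 to 8 lower and 383 (without control 3) to 3548 (without MDD 2) in all, and moved the difference of Psmb9 and Psmb6 between -0.25 and -0.00417. In females only that difference was 0.22, and that of Psmb10 and Psmb7 was 0.33. Array quality weights, chosen after seeing the data, gave 2 higher, 8 lower and 3499 in all. The cause was not tested. Of 1175 values of single genes under an alternative, 41 lost and 19 gained a call, and none reversed a called direction. The 4 arrays and weak signals of the dimmer probes limit what could be detected.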
